A study of Mus musculus with 24 samples.

Results

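The transcripts described here are 10 genes of the IL-1 and NF-κB inflammatory pathway in cultured mouse islet cells: Il1b, Il1r1, Il1rn, Il6, Tnf, Nfkbia, Tnfaip3, Icam1, Nos2 and Sod2. They were chosen by name from the 41549 genes of the count table, with earlier results of these data known. Shares of members set beside shares of all genes are therefore a description. Each member was found once, and 9 of the 10 had enough counts to be tested among 15916 genes. Nos2 was left below the filter on low counts. The cells were dispersed pancreatic islet cells of wild type C57BL/6NRj mice of both sexes aged 12 to 14 weeks. All of them were transfected overnight with 50 pmol of an antisense oligonucleotide (ASO), so that no untransfected group was available. The ASO was either a control (Ctr) or one directed against the 5' fragment of tRNA Glu(CTC) (αGlu). The cells were then exposed for 48 h to 0.5 mM palmitate (PA), a saturated fatty acid, bound to bovine serum albumin (BSA), or to 0.75% BSA alone. Messenger RNA was sequenced in 24 libraries, 6 for each pairing of an ASO with a treatment, of which 3 belonged to batch 1 (S1 to S12) and 3 to batch 2 (S13 to S24). What a batch stands for is not stated in the labels. By the study's notes on randomization, the groups of each replicate of mouse islet cells came from the same animal. The labels do not say which libraries share one, so the libraries were compared as unpaired, and the p-values measure the spread between these libraries.

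IL-1β is a cytokine that binds the type 1 IL-1 receptor, and the IL-1 receptor antagonist occupies the same receptor without starting a signal. The signal frees NF-κB transcription factors from their inhibitor IκBα, encoded by Nfkbia, and NF-κB then raises the transcription of inflammatory genes together with its own inhibitors IκBα and A20, the product of Tnfaip3. In pancreatic islets this pathway is known for its harmful action on β-cells, in part through nitric oxide made by the inducible synthase that Nos2 encodes. Il6 and Tnf encode inflammatory cytokines, Icam1 an adhesion molecule that leukocytes bind, and Sod2 the manganese superoxide dismutase of mitochondria.

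The αGlu ASO and its target are shown because the αGlu comparisons rest on them. They are printed 5' to 3', and the capitals in the target mark its bases 2 to 21, which are the reverse complement of the whole ASO of 20 bases.
αGlu ASO: taaccactagaccaccaggg
5' fragment of tRNA Glu(CTC): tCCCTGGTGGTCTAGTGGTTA

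Promoter sequences are shown for the 3 genes that PA lowered, from 250 bases before to 50 bases after a RefSeq transcription start (GRCm38.p6), 5' to 3' on the strand of the gene. Capitals mark a match to the κB consensus GGGRNNYYCC, the DNA motif of NF-κB. R is A or G, Y is C or T, and N is any base. The search covered both strands, with overlapping matches allowed. The Tnfaip3 window shown (chr10:19015361-19015660, minus strand) had 2 matches, and a second Tnfaip3 window of the table (chr10:19011914-19012213) had 0. The Nfkbia window (chr12:55492598-55492897, minus strand) had 1 match, on the strand opposite to the gene. The Icam1 window (chr9:21015690-21015989, plus strand) had no stretch with exactly these letters. It holds tggaaattcc, which departs from the consensus at its first base and was not counted. The search therefore does not show that the Icam1 window lacks a κB site. Of the 10 genes, 9 were found in the promoter table, with 13 windows, and Nos2 was not in it. A match was present in at least 1 window for 5 of the 9 genes (Il1r1, Il6, Nfkbia, Sod2 and Tnfaip3) and for 9.55% of the 27025 genes of the table, and at the level of windows for 5 of 13 and 8.46%. Because the members were picked as genes of the NF-κB pathway, these shares are a description and not a test.
Tnfaip3: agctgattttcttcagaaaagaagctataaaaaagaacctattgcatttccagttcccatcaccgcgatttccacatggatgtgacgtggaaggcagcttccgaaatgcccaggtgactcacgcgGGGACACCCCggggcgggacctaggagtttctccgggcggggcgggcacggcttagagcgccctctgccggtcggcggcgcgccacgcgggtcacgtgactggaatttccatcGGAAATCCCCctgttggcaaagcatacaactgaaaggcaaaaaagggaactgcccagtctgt
Icam1: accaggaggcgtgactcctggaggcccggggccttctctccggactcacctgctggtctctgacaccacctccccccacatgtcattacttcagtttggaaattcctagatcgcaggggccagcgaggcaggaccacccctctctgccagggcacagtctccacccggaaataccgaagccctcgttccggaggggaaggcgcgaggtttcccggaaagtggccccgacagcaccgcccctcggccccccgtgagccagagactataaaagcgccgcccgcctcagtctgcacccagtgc
Nfkbia: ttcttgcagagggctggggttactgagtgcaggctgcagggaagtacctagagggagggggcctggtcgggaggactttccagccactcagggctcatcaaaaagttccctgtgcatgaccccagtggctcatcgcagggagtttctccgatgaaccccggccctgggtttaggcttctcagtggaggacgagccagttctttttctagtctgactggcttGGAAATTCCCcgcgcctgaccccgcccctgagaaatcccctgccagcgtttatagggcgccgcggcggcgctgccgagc

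Total counts ran from 18214719 to 35001979 per library. Library S1 (Ctr BSA) had the lowest total, and a single transcript, CT010467.1, took 15.9% of its counts, whereas Ins2 was the most abundant gene in the other 23 libraries. Values between libraries were therefore compared as CPM (counts relative to the library total, scaled by TMM), and calls without S1 are included below. A gene is said to have risen or fallen when its Benjamini-Hochberg adjusted p in edgeR's quasi-likelihood test, over all 15916 genes, was below 0.05. Fold changes are given as log2 values ± standard error with 6 libraries per group. The β-cell markers checked the tissue label: their 10 genes summed to between 84084 and 152140 CPM per library.

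At the level per gene length (TPM), Il1r1 stood far above the other members. Its median over the 24 libraries was 327 TPM, between 201 in S1 and 362, above 98.9% of the 18776 genes with a median above 0. Nfkbia followed with a median of 68.6 TPM (40.1 to 106) and Sod2 with 23.6 TPM (19.6 to 25.8). In all 24 libraries Il1r1 was above Nfkbia, Nfkbia above Sod2, and Sod2 above Tnfaip3. Tnfaip3 (median 8.31 TPM) and Icam1 (median 5.33 TPM) changed places with the treatment, since Tnfaip3 was higher in all 12 PA libraries and in 2 of the 12 BSA libraries. Il1b (median 2.40 TPM, 0.924 to 3.59) and Il1rn (median 1.96 TPM, 0.558 to 4.49) were in a different order in each batch, with Il1b higher in 3 of 12 libraries of batch 1 and in 11 of 12 of batch 2. Icam1 was above Il1b in all 12 BSA libraries and in 8 of 12 PA libraries. Tnf (0.323 TPM), Il6 (0.192 TPM) and Nos2 (0.0244 TPM) had the lowest medians, and 1, 3 and 7 libraries respectively listed them at 0. The order of the medians was the same with RPKM.

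**Figure D1:**
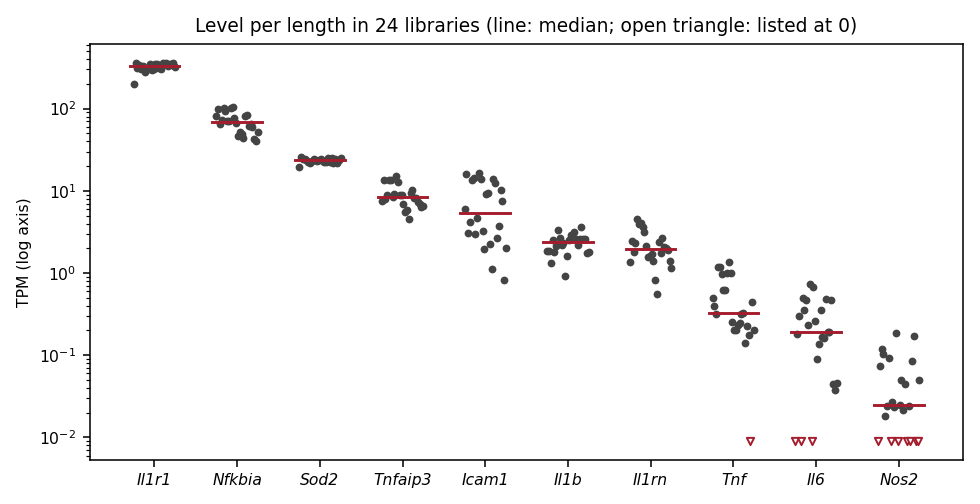
TPM of each member (log axis) in 24 libraries, in the order of the medians. Il1r1 lies between 201 and 362 TPM in all libraries, while Tnf, Il6 and Nos2 include libraries listed at 0, drawn as open triangles below the lowest value.

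Per length, transcripts of the receptor were more abundant than those of the ligand and of the antagonist in all libraries. The ratio of Il1r1 to Il1b TPM had a median of 137 and was never below 85.2. Il1rap, which encodes the accessory chain that the receptor needs for signalling, had a median of only 1.84 TPM (1.48 to 3.11), and Il1r2, the decoy receptor, 1.90 TPM (0.377 to 3.02). The ratio of Il1r1 to Il1rap TPM was between 112 and 221. The ratio of Il1rn to Il1b TPM varied from 0.178 to 2.53 with a median of 0.923, and was above 1 in 9 of 12 libraries of batch 1 and in 1 of 12 of batch 2. Its median went from 0.847 under BSA to 1.13 under PA in Ctr cells, and from 0.858 to 0.786 in αGlu cells, with no test run on these ratios. The other IL-1 ligand, Il1a, had a median of 0.0230 TPM.

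Exposure to PA lowered 3 members and raised none by the test used. In Ctr cells, Icam1, Nfkbia and Tnfaip3 fell, 3 of 9 tested members, against 14.5% of all genes tested. In αGlu cells, Icam1 and Tnfaip3 fell, 2 of 9, against 14.2%. Averaged over both ASOs the same 3 genes fell, against 22% of all genes lowered and 23.4% raised. No member rose in these comparisons in edgeR or DESeq2, and none had an unadjusted p below 0.05 in the upward direction in edgeR. The median log2 fold change of the 9 members in the averaged comparison was -0.24, beside 0.0059 for all genes tested.

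Icam1 showed by far the greatest change among the members. In Ctr BSA its level was between 12.4 and 25.4 CPM (median 18.3), and in Ctr PA between 1.43 and 4.86 CPM (median 4.26). In αGlu BSA it was between 12.8 and 22.7 CPM (median 20.4), and in αGlu PA between 1.87 and 6.99 CPM (median 4.54). Every PA library was below every BSA library. The fall was -2.28 ± 0.25 in Ctr cells (4.87-fold, adjusted p = 3.17e-07) and -2.06 ± 0.24 in αGlu cells (4.16-fold, adjusted p = 1.14e-06) by edgeR. With each batch fitted alone it was -2.06 ± 0.28 in batch 1 and -2.52 ± 0.39 in batch 2 for Ctr cells, and -2.04 ± 0.28 and -2.09 ± 0.39 for αGlu cells. By the threshold of the study, more than 2-fold with p below 0.05 before adjustment, Icam1 was the only member called in either comparison, beside 5.06% of all genes lowered in Ctr and 4.74% in αGlu cells.

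Nfkbia and Tnfaip3, the inhibitors that NF-κB itself induces, fell by a smaller amount. Nfkbia was between 26.8 and 62.3 CPM in Ctr BSA (median 51.3) and between 25.5 and 41.6 CPM in Ctr PA (median 34.7). In αGlu BSA it was between 27.1 and 57.9 CPM (median 50.1) and in αGlu PA between 26.9 and 39.6 CPM (median 37.6). The groups overlapped, since the lowest BSA libraries of batch 2 reached the level of PA. The change was -0.44 ± 0.13 in Ctr cells (edgeR adjusted p = 0.0166) and -0.31 ± 0.13 in αGlu cells (adjusted p = 0.0842), which missed the threshold. Averaged over both ASOs it was -0.37 ± 0.10 (adjusted p = 0.00244).

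Tnfaip3 was between 17.9 and 38 CPM in Ctr BSA (median 24.7) and between 15.6 and 22.04 CPM in Ctr PA (median 19.9). In αGlu BSA it was between 14.4 and 33.3 CPM (median 29.6) and in αGlu PA between 12.6 and 22.7 CPM (median 21.7). Again the ranges overlapped across batches. The change was -0.40 ± 0.14 in both Ctr cells (edgeR adjusted p = 0.0307) and αGlu cells (adjusted p = 0.0352), and -0.40 ± 0.10 averaged over both ASOs (adjusted p = 0.00187).

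In these unpaired fits the falls of Nfkbia and Tnfaip3 passed the test in batch 1 but not in batch 2. In batch 1, Nfkbia was between 56.0 and 62.3 CPM in Ctr BSA and between 35.4 and 41.6 CPM in Ctr PA, with no overlap, and Tnfaip3 was between 25.6 and 38 CPM in Ctr BSA and between 19.6 and 22.04 CPM in Ctr PA. In batch 2 the same groups overlapped for both genes, with Nfkbia between 26.8 and 46.7 CPM in Ctr BSA and between 25.5 and 33.9 CPM in Ctr PA. Averaged over both ASOs, Nfkbia changed by -0.54 ± 0.06 in batch 1 (adjusted p = 4.37e-05) and by -0.21 ± 0.17 in batch 2 (adjusted p = 0.370), and Tnfaip3 by -0.59 ± 0.08 (adjusted p = 0.00029) and -0.21 ± 0.16 (adjusted p = 0.364), all by edgeR. The difference between the PA responses of the batches was 0.32 ± 0.19 for Nfkbia (unadjusted p = 0.110) and 0.37 ± 0.19 for Tnfaip3 (unadjusted p = 0.0673) in edgeR's fit. By this test no member differed between batches at an adjusted p below 0.05, in edgeR or in DESeq2, against 0.0565% of all genes called in edgeR. None had an unadjusted p below 0.05 in either, beside 6.18% of all genes in edgeR. Without a batch term in the model, neither gene passed in Ctr cells (adjusted p = 0.119 for Nfkbia and 0.144 for Tnfaip3), and Tnfaip3 did not in αGlu cells (0.170). Both genes still passed in that model when averaged over both ASOs.

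These calls also lay close enough to the threshold that leaving out 1 library could change them, while the changes stayed negative. Over the 24 such fits Tnfaip3 changed by -0.47 to -0.33 in Ctr cells and by -0.50 to -0.31 in αGlu cells. Nfkbia changed by -0.53 to -0.37 in Ctr cells and by -0.41 to -0.20 in αGlu cells. In Ctr cells Nfkbia did not pass without S17 (adjusted p = 0.0523). Tnfaip3 did not pass in Ctr cells without S3, S5, S7, S9, S11, S15 or S17, with adjusted p between 0.0567 and 0.0897. In αGlu cells it did not pass without S2, S4, S6, S8, S10, S12, S16 or S18, with adjusted p between 0.0594 and 0.112. Nfkbia passed in αGlu cells without S20 (adjusted p = 0.0236) or S22 (0.0294). Averaged over both ASOs, Icam1, Nfkbia and Tnfaip3 passed in all 24 fits that left out 1 library, S1 included, all by edgeR.

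**Figure D2:**
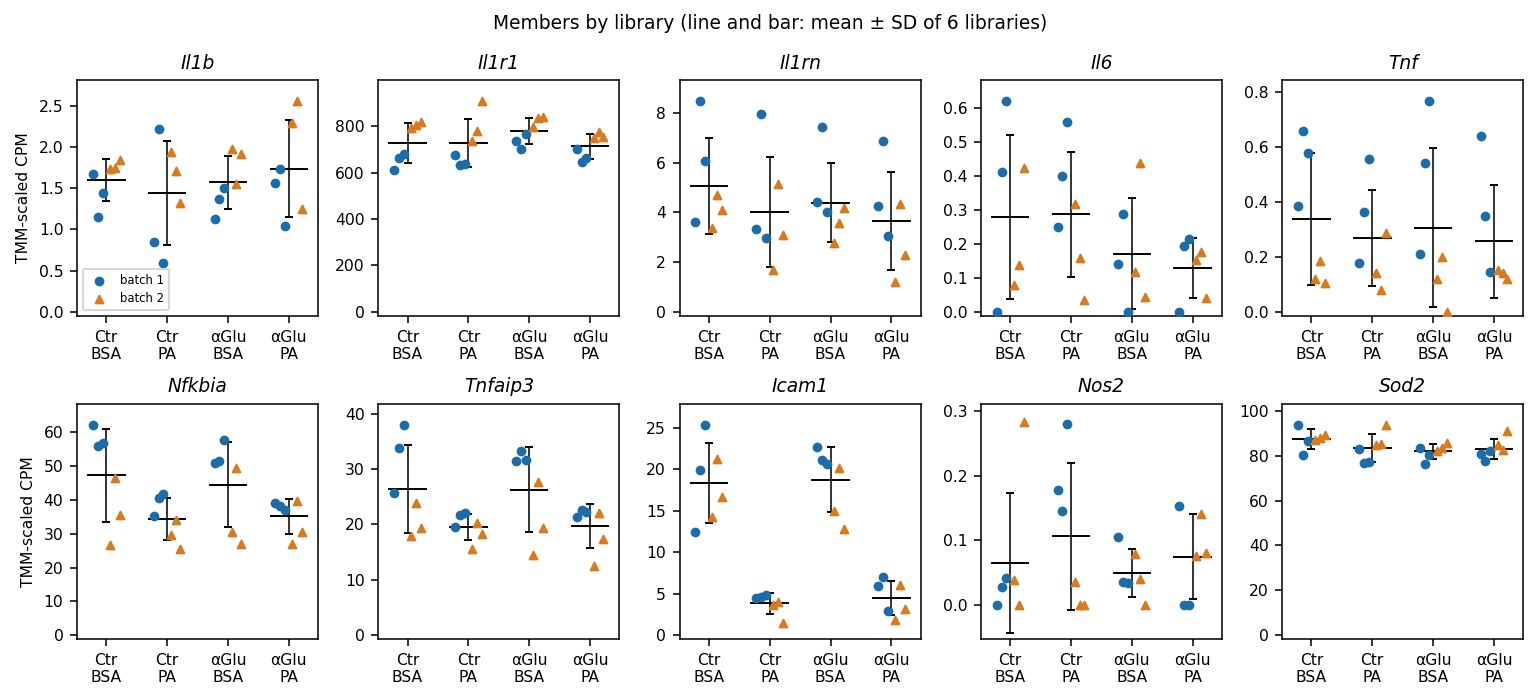
TMM-scaled CPM of the 10 members in each library, by group, with blue circles for batch 1, orange triangles for batch 2, and a line and bar for mean ± SD of 6 libraries. Icam1 is below 7 CPM in all PA libraries and above 12 CPM in all BSA libraries, while Nfkbia and Tnfaip3 separate by treatment in batch 1 and overlap in batch 2.

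The ligand, the receptor and the antagonist did not pass the test for PA. Il1b was between 1.15 and 1.84 CPM in Ctr BSA (median 1.71) and between 0.598 and 2.22 CPM in Ctr PA (median 1.52). The PA libraries spread on both sides of the BSA libraries, and the change was -0.15 ± 0.25 in Ctr cells (95% interval -0.66 to 0.36) and 0.14 ± 0.24 in αGlu cells (-0.36 to 0.65). Il1b rested on 15 to 73 counts per library. Its exons overlap those of Il1bos on the opposite strand, which held 7 to 37 counts, and whether the counting used strand is not given in the sources used here, so reads of both genes may not have been told apart. The exons of Icam1 overlap those of Gm47079, also on the opposite strand, with 3 to 14 counts per library, beside 40 to 722 for Icam1.

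Il1r1 was the most tightly measured member of this group. Its level was between 610 and 817 CPM in Ctr BSA (median 736) and between 632 and 908 CPM in Ctr PA (median 707), with a change of 0.00015 ± 0.05 (95% interval -0.11 to 0.11). In αGlu BSA it was between 700 and 838 CPM (median 780) and in αGlu PA between 644 and 777 CPM (median 725), with a change of -0.13 ± 0.05 (edgeR adjusted p = 0.0683). This last change passed in DESeq2 (adjusted p = 0.0225), in a fit of both αGlu groups alone (0.0152), and without S4 (0.0463) or S23 (0.0236). The difference of the PA responses of αGlu and Ctr cells was itself -0.13 ± 0.07 (unadjusted p = 0.0948, adjusted p = 0.999). Il1rn was between 3.36 and 8.47 CPM in Ctr BSA (median 4.40) and between 1.69 and 7.95 CPM in Ctr PA (median 3.20). In αGlu BSA it was between 2.76 and 7.43 CPM (median 4.09) and in αGlu PA between 1.18 and 6.87 CPM (median 3.65). The groups overlapped widely, and the changes were -0.33 ± 0.30 in Ctr and -0.28 ± 0.31 in αGlu cells (adjusted p = 0.437 and 0.531).

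The cytokine genes Il6 and Tnf were near the limit of the counts. Il6 had 0 to 15 counts per library and 141 in all 24, and Tnf 0 to 24 counts and 193 in all. Il6 was between 0 and 0.620 CPM in Ctr BSA (median 0.275) and between 0.0358 and 0.558 CPM in Ctr PA (median 0.283). Tnf was between 0.106 and 0.660 CPM in Ctr BSA (median 0.285) and between 0.0794 and 0.558 CPM in Ctr PA (median 0.232). The 95% intervals of the PA change in Ctr cells ran from -1.43 to 1.32 for Il6 and from -1.21 to 0.78 for Tnf, and a 2-fold fall of either gene lay within them. For the average of both ASOs the interval ran from -1.30 to 0.82 for Il6, and from -0.89 to 0.53 for Tnf, which leaves out a 2-fold fall.

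Of the genes that protect or harm the cell downstream of NF-κB, Sod2 hardly varied and Nos2 was barely detected. Sod2 was between 80.5 and 93.9 CPM in Ctr BSA (median 87.6) and between 76.9 and 93.7 CPM in Ctr PA (median 83.8). Its change under PA was -0.07 ± 0.04 in Ctr cells (95% interval -0.16 to 0.02) and 0.02 ± 0.04 in αGlu cells (-0.07 to 0.11). Nos2 had 49 counts in all 24 libraries, between 0 and 8 in each, and 7 libraries had none. In Ctr cells its level reached 0.283 CPM under BSA (median 0.0335) and 0.279 CPM under PA (median 0.0905). In αGlu cells it reached 0.106 CPM under BSA (median 0.0379) and 0.153 CPM under PA (median 0.0785), and the lowest library of each group was at 0. In a two-sided exact permutation test within batches on log2(CPM + 0.5), which can give no p below 0.005, the difference PA minus BSA was 0.10 in Ctr cells (p = 0.560) and 0.06 in αGlu cells (p = 0.450). The same exact permutation test of αGlu against Ctr gave -0.03 in BSA (p = 0.915) and -0.06 in PA (p = 0.600). A filter-free edgeR fit gave adjusted p from 0.781 to 1 for these 4 comparisons.

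The αGlu ASO was compared with the Ctr ASO to ask whether blocking the tRNA fragment alters the response of islet cells to PA. No member passed in BSA, in PA, averaged over both treatments, or in the difference of the PA responses, in edgeR or in DESeq2. Few genes did in edgeR, with 0% of all genes tested in BSA, 0% in PA, 0.239% averaged over both treatments and 0% for the difference of responses. At an unadjusted p below 0.05, edgeR counted 1 member of 9 in BSA, beside 2.9% of all genes tested, and DESeq2 counted 2, beside 2.95%. Both counted 0 members in PA, averaged over both treatments and for the difference of responses, where edgeR counted 3.38%, 3.9% and 2.09% of all genes. The edgeR member was Sod2, named after its value was seen, with -0.10 ± 0.04 (unadjusted p = 0.0395, adjusted p = 1.00) and a median of 82.8 CPM in αGlu BSA, where the range of 76.6 to 85.7 overlapped that of Ctr BSA. For Icam1 the difference αGlu against Ctr was 0.01 ± 0.23 in BSA (95% interval -0.46 to 0.48) and 0.24 ± 0.26 in PA (-0.29 to 0.77). For Nfkbia it was -0.08 ± 0.13 in BSA (-0.35 to 0.20) and 0.04 ± 0.13 in PA (-0.23 to 0.32), and for Tnfaip3 -0.01 ± 0.14 and 0.00 ± 0.14, with both intervals within -0.29 to 0.29. The widest intervals belonged to Il6, with -0.72 ± 0.72 in BSA and -1.09 ± 0.74 in PA. The PA response of αGlu cells differed from that of Ctr cells by 0.23 ± 0.34 for Icam1, 0.12 ± 0.19 for Nfkbia and 0.01 ± 0.20 for Tnfaip3.

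**Figure D3:**
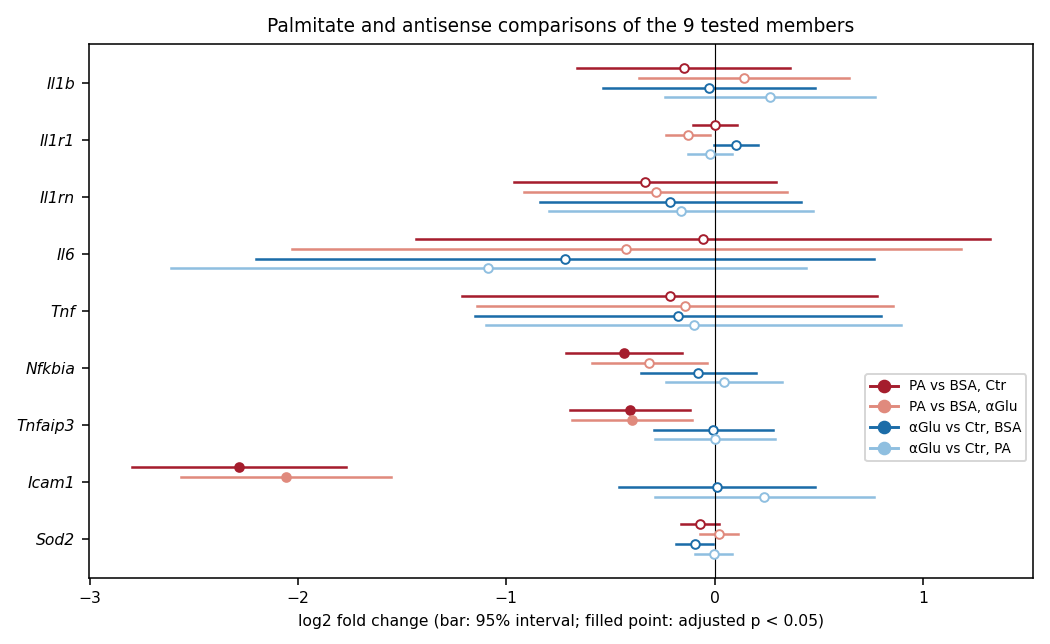
Log2 fold changes of the 9 tested members with 95% intervals, for PA against BSA (red) and αGlu against Ctr (blue), with filled points for an adjusted p below 0.05. Filled points appear for Icam1 and Tnfaip3 under PA with both ASOs and for Nfkbia under PA in Ctr cells, and all αGlu points are open.

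The rest of the pathway was read from 9 lists, which together held 166 genes, 143 of them tested. The lists were also chosen with earlier results of these data known, so their shares are a description. Averaged over both ASOs, 42 of them fell (29.4%) and 23 rose (16.1%) under PA, beside 22% of all genes tested that fell and 23.4% that rose. The counts of the single lists below stand against the same shares of all genes. For αGlu against Ctr averaged over both treatments no gene of the lists passed in edgeR or DESeq2, and 6 had an unadjusted p below 0.05 in each, which is 4.2% of those tested, beside 3.9% of all genes in edgeR. By the naming rule, the gene of the IL-1 family list with the smallest p was Il1rap, at -0.32 ± 0.09 (edgeR unadjusted p = 0.00228, adjusted p = 0.294). All changes in the next sentences are of the averaged PA comparison, by edgeR.

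Among the 12 tested genes of the IL-1 family, 3 fell and 2 rose, with a median of -0.05. Il18r1 and Il18rap, the 2 chains of the IL-18 receptor, fell by 1.95 ± 0.18 and 2.14 ± 0.45, and Il1rl2, the receptor of IL-36, by 1.01 ± 0.18. Sigirr, which damps IL-1 receptor signalling, rose by 0.43 ± 0.07. Of the 18 adaptors of IL-1 and Toll-like receptors, 5 rose and 2 fell, with a median of 0.06. The kinase gene Irak1 rose by 0.30 ± 0.03, Ticam1 by 0.25 ± 0.04, and Tollip and Irak3, both negative regulators, by 0.13 ± 0.03 and 0.41 ± 0.10. Among 9 Toll-like receptor genes, Ly96 and Tlr2 rose (0.43 ± 0.08 and 0.21 ± 0.06) and 3 fell, Tlr7 at -2.66 ± 0.59 and Tlr4 at -0.51 ± 0.19 among them, with a median of -0.26.

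Of 15 genes of TNF receptors and adaptors, 4 fell and 1 rose, with a median of -0.09. Traf2 (-0.23 ± 0.05), Traf5 (-0.32 ± 0.08) and Birc2 (-0.14 ± 0.04) fell, and Fadd, an adaptor of death receptors, rose (0.18 ± 0.05). Of the 11 NF-κB subunits and IKK genes, 4 fell and 2 rose, with a median of -0.06. Those that fell were Map3k14, the kinase of the non-canonical pathway (-0.53 ± 0.06), Nfkb1 (-0.24 ± 0.03), Rela (-0.24 ± 0.04) and Tbk1 (-0.13 ± 0.04). Of the 18 inhibitors and feedback genes, which include Nfkbia and Tnfaip3, 5 fell and 2 rose, with a median of -0.08. Nfkbiz fell by 0.33 ± 0.08 and N4bp1 by 0.16 ± 0.03, and the deubiquitinase gene Otulin rose by 0.26 ± 0.05.

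Among the 44 NF-κB target genes tested, 17 fell and 6 rose, with a median of -0.21. Beside Icam1 the smallest p-values belonged to Csf1, a growth factor of macrophages (-1.71 ± 0.12), F3, which encodes tissue factor (-1.09 ± 0.10), and Plau, which encodes urokinase (-2.32 ± 0.24). Of the 8 inflammasome genes, 3 rose, namely the adaptor Pycard (0.47 ± 0.11), Nlrc4 (0.60 ± 0.17) and Gsdmd, which encodes the pore-forming gasdermin D (0.52 ± 0.16). Txnip fell (-0.54 ± 0.06), and the median of this list was 0.03. Of the 16 genes of IL-6 family signalling, 5 fell, among them Adam17 (-0.24 ± 0.05), Stat3 (-0.19 ± 0.04), Osmr (-0.76 ± 0.22) and Socs3 (-0.19 ± 0.07), with a median of -0.11.

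**Figure D4:**
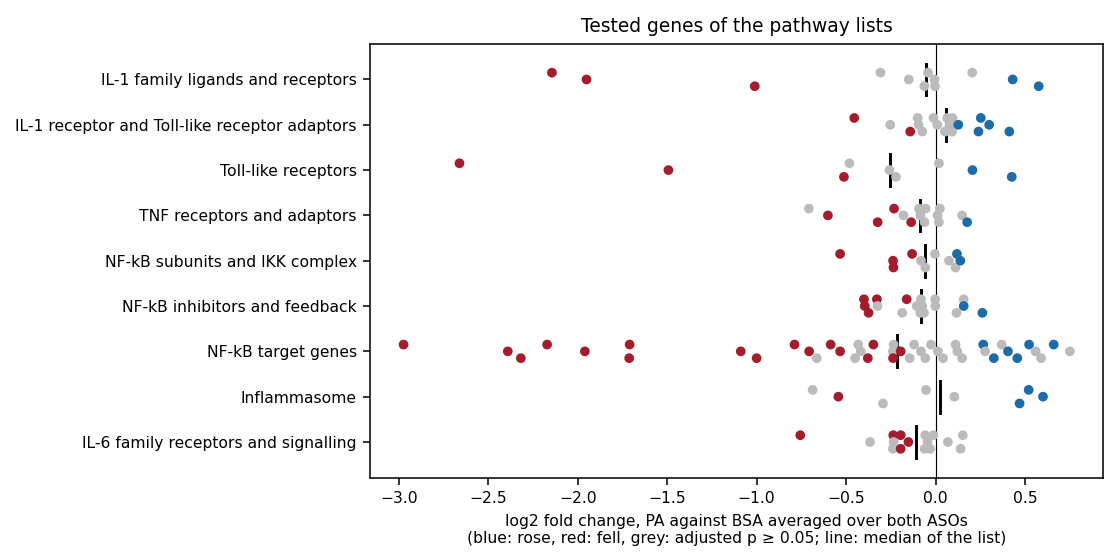
Log2 fold change of each tested gene of the 9 pathway lists for PA against BSA averaged over both ASOs, with red for genes that fell, blue for genes that rose, grey for the rest and a black line for the median of the list. The list medians lie between -0.26 and 0.06, and the NF-κB targets hold 17 genes that fell and 6 that rose.

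Markers of several cell types other than β-cells moved with PA as well, and in bulk libraries fewer cells of a type and less RNA per cell cannot be told apart. Averaged over both ASOs, all 12 tested fibroblast and stellate cell markers fell, with a median of -2.49. In Ctr cells their summed level was between 691 and 1438 CPM under BSA and between 59.8 and 251 CPM under PA, and in αGlu cells between 408 and 2177 CPM and between 51.4 and 322 CPM, so that no PA library reached a BSA library. Macrophage markers fell in 9 of 18 genes (median -1.20). In Ctr cells 12 of 18 fell (median -2.17), with sums between 90.7 and 446 CPM under BSA and between 89.03 and 136 CPM under PA. In αGlu cells 1 of 18 fell (median -0.31), with sums between 98.6 and 193 CPM under BSA and between 85.02 and 150.4 CPM under PA. The 446 CPM of Ctr BSA came from library S21, and the next highest library of that group had 198 CPM. For αGlu against Ctr the macrophage markers had a median of -0.91 in BSA and 0.79 in PA, with 0 of 18 called in each. No gene tested passed in edgeR for the difference of the PA responses of αGlu and Ctr cells. Endothelial markers fell in 4 of 11 (median -0.71), with sums of 30.025 to 93.3 CPM in Ctr BSA and 19.4 to 76.5 in Ctr PA, and of 23.8 to 100.2 CPM in αGlu BSA and 16.2 to 75.0 in αGlu PA. Acinar markers fell in 9 of 10 genes (median -1.05) and ductal markers in 6 of 9 (median -0.32). Of the 10 β-cell markers, 3 rose and 3 fell (median -0.02), and of the 6 markers of alpha, delta and PP cells, 4 fell (median -0.30). Of 3 tested lymphocyte markers 2 fell, and their sum was at most 8.38 CPM, with Nkg7 and Gzma at 0 in 3 of 4 groups. No neutrophil marker passed the filter, their sum was at most 1.12 CPM, and Retnlg was at 0 in all groups. The part of these cell types in the fall of Icam1, Nfkbia or Tnfaip3 was not tested.

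**Figure D5:**
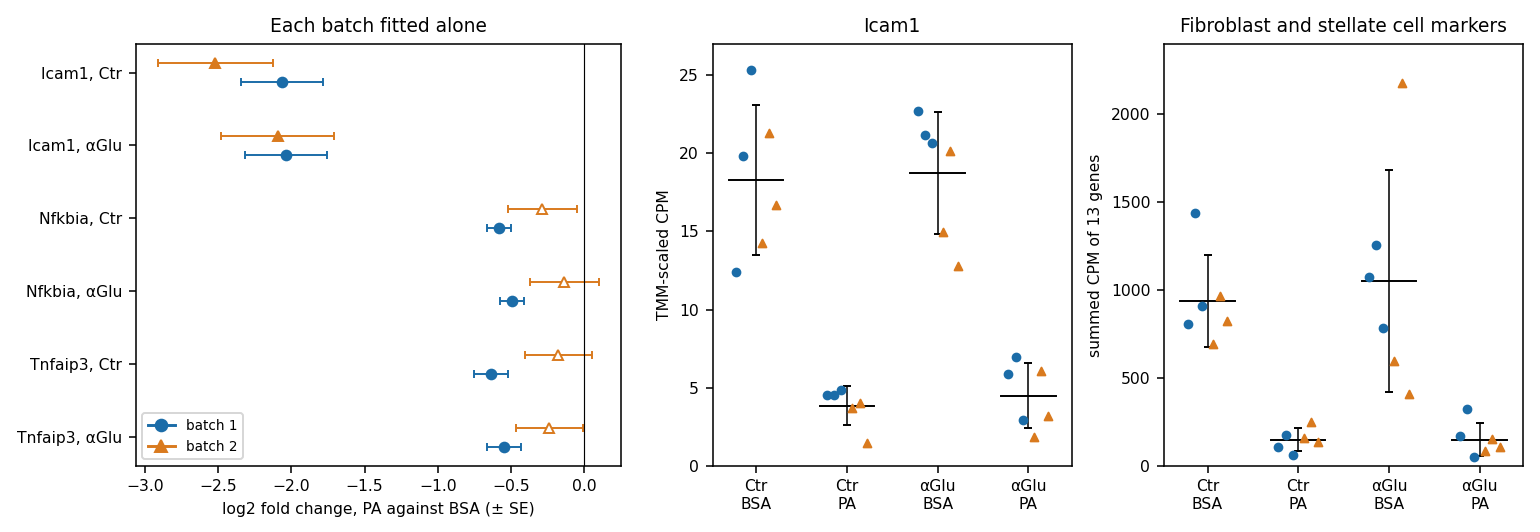
Left, log2 fold change of PA against BSA ± SE with each batch fitted alone (filled: adjusted p below 0.05); middle and right, Icam1 in CPM and the summed CPM of 13 fibroblast and stellate cell markers in each library, with mean ± SD of 6 libraries. Icam1 falls in both batches, Nfkbia and Tnfaip3 pass in batch 1 alone, and both right panels show PA libraries below all BSA libraries.

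Of the 8 Schwann cell and glia markers, 6 were lower in αGlu cells averaged over both treatments (median -2.85), beside 0.239% of all genes tested called in either direction. Their sum was between 7.72 and 28.045 CPM in αGlu BSA and between 10.8 and 99.0 CPM in Ctr BSA. Under PA it was between 8.22 and 13.5 CPM in αGlu cells and between 14.3 and 72.8 CPM in Ctr cells, with no overlap. No member passed in this comparison, as given above.

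Between batch 2 and batch 1, 8 of 9 tested members differed, 3 raised and 5 lowered, against 26.1% of all genes raised and 25.4% lowered. Tnf was between 0.143 and 0.767 CPM in batch 1 (median 0.464) and between 0 and 0.286 CPM in batch 2 (median 0.130), a difference of -1.66 ± 0.35 (edgeR adjusted p = 0.000272). Il1rn was lower in batch 2 by -0.64 ± 0.22 (adjusted p = 0.0157), Nfkbia and Tnfaip3 by -0.48 ± 0.10 each (adjusted p = 0.000174 and 0.000261) and Icam1 by -0.41 ± 0.17 (adjusted p = 0.0489). Il1r1 was higher in batch 2, between 737 and 908 CPM against 610 and 765 CPM in batch 1 (0.24 ± 0.04, adjusted p = 4.26e-06), and so were Il1b (0.43 ± 0.17, adjusted p = 0.0439) and Sod2 (0.09 ± 0.03, adjusted p = 0.0237). Il6 did not pass (-0.45 ± 0.52). The calls of Il1b and Icam1 were close to the threshold, since they passed in 7 and 6 of the 24 fits that left out 1 library, with adjusted p up to 0.0831 and 0.0902. The cell type markers differed between batches too: all 10 acinar markers were lower in batch 2 (median -4.40), with sums of 3168 to 23763 CPM in batch 1 and 230 to 619 CPM in batch 2, and all 10 β-cell markers were higher (median 0.54). The part of this difference in the values of the members was not tested.

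The genes with a pattern most like that of each tested member were taken from Pearson correlations of log2 CPM over 24 libraries after subtraction of the batch mean. These libraries share groups, depth and cell mixture, and the values are a description. Icam1 was most like Glipr1 (r = 0.978), Ankrd1 (0.975) and Wnt7a (0.975). Nfkbia was most like Trp53 (0.900), Sh3rf1 (0.835) and Ifngr2 (0.818), and Tnfaip3 was also most like Trp53 (0.850), followed by Skil (0.847) and Notch2 (0.846). When the mean of each group within each batch was subtracted instead, the genes most like Nfkbia were Nfkb2 (0.899) and Relb (0.865), the subunits of non-canonical NF-κB, and Ifngr2 (0.842). With this centring Tnfaip3 was most like Sox9 (0.820), which is in the list of ductal markers, and Icam1 most like Wnt7a (0.917), Efnb2 (0.887) and Gja1 (0.885). No member other than Nfkbia had a gene of the NF-κB lists among the 3 most like it with this centring. Il1r1 was most like Usp45 (0.907), Sesn3 (0.889) and Vps13a (0.882), and Il1rn most like Tyro3 (0.862), Mgst1 (0.809) and Muc1 (0.804), the last of which is in the list of ductal markers. Il1b was most like Znhit6 (0.788), Nubp2 (0.742) and Kifc1 (0.741), Il6 like Kitl (0.756), Diaph3 (0.75) and Ampd3 (0.730), and Tnf like Ubap2 (0.668), Gm23262 (0.660) and Vcpkmt (0.657). Sod2 was most like E230016M11Rik (0.767), Gm47405 (0.759) and Malat1 (0.758). Among the members themselves, with the group means within batches subtracted, the highest correlations were those of Nfkbia with Tnfaip3 (0.666), Il1rn with Tnfaip3 (0.611) and Tnfaip3 with Icam1 (0.598), and the lowest was that of Il6 with Sod2 (-0.56).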

How the data were processed

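Stranded mRNA libraries of 24 mouse islet cell samples were used. The authors used version 5.1 of QIAGEN's RNA-seq Analysis Portal, and the submitters' processing notes name GRCm38. The deposited table gives, for each gene and library, the count of reads on exons, TPM and RPKM values, and a CPM value (24 columns) not used here. The sources used here do not give the aligner, the annotation or the strand setting of the counting. Genes were tested with edgeR 4.0.16 (R 4.3.3), with DESeq2 1.42.0 as an alternative, on the deposited counts, with TMM scaling, a filter (filterByExpr, at least 10 counts) and a term for batch over all 24 libraries. The CPM values printed were computed here from the counts and TMM factors. The TPM values deposited by the authors served for levels between genes and the RPKM values deposited by the authors as a check of their order. Coordinates came from GENCODE. Named genes were all members, up to 4 genes of each pathway list with the smallest p for PA and up to 2 for αGlu, and the 3 genes most like each member. The members and lists were chosen with earlier results of these data known. The scripts were tested on simulated data. Counts cover reads without molecular identifiers, so counting error understates the spread.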

Additional observations from a re-analysis of the deposited data

Results flagged for a closer look

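Among 40 sets of 6 libraries (10 members in 4 groups), 3 had a library that lay far from the other 5 by Dixon's test, and about 1 set in 20 does so by chance. Il1rn in αGlu BSA was 7.43 CPM in library S6, where the next highest library had 4.41 CPM. S6 also had the highest summed endothelial, acinar and ductal markers of its group. Icam1 in Ctr PA was 1.43 CPM in library S23, below the next lowest at 3.67 CPM. Nos2 in Ctr BSA was 0.283 CPM in library S21, where the next highest had 0.0413 CPM, and S21 had the highest summed macrophage markers of all libraries, at 446 CPM against 198 in the next. The part of these markers in the values was not tested.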

How the results depend on the processing

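No paired analysis was possible because the labels give no number or name that says which libraries of different groups came from the same animal, and the order of the libraries was not used in its place. In PA against BSA the number of members called was 3 in Ctr cells, 2 in αGlu cells and 3 averaged over both ASOs. Without a batch term it was 1 in Ctr cells, 1 in αGlu cells and still 3 averaged over both ASOs. In batch 2 alone and at the study's threshold it was 1 in each of the 3 comparisons, and this was Icam1. Leaving out each library gave 1 to 3 in Ctr cells, 1 to 3 in αGlu cells, 3 to 4 averaged over both ASOs, and 6 to 8 for batch 2 against batch 1, which fell from 8 to 1 (Tnf) at the study's threshold. The causes were not tested, except that this threshold asks for a 2-fold change. For αGlu against Ctr, its average, the difference of the PA responses and the batch difference of the PA response, the number was 0 in all fits run, single omissions (0 to 0) included. Upper-quartile scaling, no filter, a stricter filter and DESeq2 kept each count within 1.5 times. No called direction reversed. For Nos2, other pseudocounts and a permutation ignoring batch gave no call. Il6, Tnf and Nos2 rested on few counts in each library, as given above.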

Other observations

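Il1rn was highest in library S5 of Ctr BSA (8.47 CPM), S7 of Ctr PA (7.95 CPM), S6 of αGlu BSA (7.43 CPM) and S8 of αGlu PA (6.87 CPM), all of batch 1. S7, S6 and S8 were also the libraries with the highest summed ductal markers of their groups, at 1605, 1598 and 1460 CPM. In Ctr BSA that library was S9, at 1689 CPM. Summed acinar markers were highest in the same libraries, at 8515 CPM in S7, 14446 in S6, 7678 in S8 and 23763 in S9. S6 and S8 also had the highest summed endothelial markers of their groups, whereas S1 and S3 had them in Ctr BSA and Ctr PA. Library S16 of αGlu PA had the lowest Il1rn (1.18 CPM) and the lowest Tnfaip3 (12.6 CPM) of all 24, and the lowest Icam1 (1.87 CPM) and Nfkbia (26.9 CPM) of its group. No test was run on these values.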
